A study of Mus musculus with 4 samples.

Results

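The AP-1 and Nr4a immediate early factors described here are 10 genes, *Fos*, *Fosb*, *Fosl2*, *Jun*, *Junb*, *Jund*, *Atf3*, *Nr4a1*, *Nr4a2* and *Nr4a3*. They were found by gene name among the non-control probes of a mouse array, which gave 12 of 41174 probes, with 2 probes each for *Fosl2* and *Junb* and 1 for each of the other genes. RNA came from LSK cells (KSL in the labels), a sorted fraction of mouse bone marrow (no lineage markers, both Sca-1 and c-Kit on the surface) in which hematopoietic stem cells are found together with early progenitors. Meis1-deficient cells were from *Mx1-Cre*-positive *Meis1* fl/fl mice and control cells from Cre-negative *Meis1* fl/fl mice, labeled as wild type, all on C57BL/6J and 4 to 8 weeks old at treatment. For both genotypes the sample labels give 4 intraperitoneal injections of poly(I:C), a synthetic inducer of interferon, at 1.5 µg/g, whereas the deposited design calls the controls sham-treated, so that genotype and treatment cannot be told apart if the controls were not injected. Cells were taken 1 week after poly(I:C). Cre under the *Mx1* promoter is induced by interferon and is not limited to blood cells, and it removes exon 8 of *Meis1*, which encodes the DNA-binding homeodomain. Each genotype was represented by 2 pools of 6 mice, each hybridized to 1 array. The 2 arrays of a genotype were on different slides, so the spread between them is that of pool, slide and handling together. In such bulk samples, fewer cells of a type and less RNA per cell cannot be told apart.

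Immediate early genes are transcribed within minutes of a stimulus such as a growth factor, cytokine or stress, from factors already present in the cell, and their mRNAs are short-lived. AP-1 is a dimer of a Jun protein with a Fos, Atf or another Jun protein that binds DNA through a basic leucine zipper (bZIP). The Nr4a proteins are orphan nuclear receptors that act without a known natural ligand, and in hematopoietic stem cells they are known for a part in quiescence.

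Each level below is the log2 of a probe's processed signal divided by the 75th percentile of the array's signals, so that it compares the same probe between arrays and not one probe with another. Each slide held 1 array of each genotype, slide 1 the first replicates and slide 2 the second, with the Meis1-deficient array always in position 1, so that position and genotype cannot be told apart. The 75th percentile was 90.3 intensity units on the Meis1-deficient array of slide 2 and 147 to 154 on the other 3. On that array 49.2% of spots were well above background, against 54.7% to 57.4%, and across probes its r with each other array was 0.891 to 0.916, where pairs of the other arrays had 0.956 to 0.967. No spot was saturated. The brighter *Meis1* probe (A_52_P670612) read 1.02 in control against 0.25 in Meis1-deficient cells on slide 1, and 1.45 against 0.22 on slide 2. The other *Meis1* probe (A_52_P26195) read -1.55 against -2.46 and -1.06 against -3.54, and only the Meis1-deficient array of slide 1 had it well above background among those of its genotype. Both were lower on both slides, and whether they lie in the deleted exon was not analysed here. Of 10 LSK markers on the array, 9 or 10 were well above background on each array. In Meis1-deficient cells 2 were called lower, where 0.736% of all tested probes were called in either direction. These were *Hlf* (difference -2.42, standard error 0.55) and *Flt3* (fitted difference -3.33, standard error 0.80, well above background on 1 of 2 Meis1-deficient arrays, so that its size is not measured), each with an adjusted p of 0.983 (limma), and their part in the levels of the members was not tested.

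The promoters of *Nr4a1*, *Fosb*, *Fos* and *Junb* are shown because their genes define the patterns described below. *Nr4a1* and *Fosb* had the closest values among all genes compared with *Nr4a1*, while *Fos* and the brighter *Junb* probe stood apart from the other members. Each line holds the 250 bases before the gene's start in RefSeq (GRCm38.p6), 5′ to 3′ on the gene's strand, and capitals mark TGACG on either strand (CGTCA where it lies on the opposite strand). TGACG is the core of the cAMP response element, to which Creb and Atf proteins bind.

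Nr4a1, chr15:101266596-101266845, plus strand: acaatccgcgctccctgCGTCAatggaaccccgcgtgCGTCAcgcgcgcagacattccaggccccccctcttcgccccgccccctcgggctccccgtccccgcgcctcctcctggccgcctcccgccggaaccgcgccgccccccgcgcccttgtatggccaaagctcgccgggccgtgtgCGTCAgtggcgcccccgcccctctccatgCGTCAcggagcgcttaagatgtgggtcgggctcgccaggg

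Fosb, chr7:19310046-19310295, minus strand: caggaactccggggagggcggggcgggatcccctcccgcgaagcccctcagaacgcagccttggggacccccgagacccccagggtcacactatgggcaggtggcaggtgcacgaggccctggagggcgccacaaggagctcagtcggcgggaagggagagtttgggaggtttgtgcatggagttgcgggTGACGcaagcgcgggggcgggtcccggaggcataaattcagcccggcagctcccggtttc

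Fos, chr12:85473640-85473889, plus strand: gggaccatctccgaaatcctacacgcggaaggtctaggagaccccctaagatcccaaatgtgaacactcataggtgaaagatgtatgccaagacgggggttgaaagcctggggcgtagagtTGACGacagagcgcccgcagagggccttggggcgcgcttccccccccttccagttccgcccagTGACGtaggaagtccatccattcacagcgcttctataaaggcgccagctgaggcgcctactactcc

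Junb, chr8:84978749-84978998, minus strand: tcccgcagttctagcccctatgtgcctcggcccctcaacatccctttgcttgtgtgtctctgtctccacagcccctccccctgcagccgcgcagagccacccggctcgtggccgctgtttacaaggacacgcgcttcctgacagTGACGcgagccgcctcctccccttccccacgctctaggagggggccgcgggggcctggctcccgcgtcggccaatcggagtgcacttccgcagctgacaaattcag

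All 10 genes had a promoter in the table, which runs on past the start and holds 32851 promoters. On both strands of that window, TGACG was found for 7 genes, *Fos*, *Fosb*, *Junb*, *Atf3*, *Nr4a1*, *Nr4a2* and *Nr4a3*, and in 20.8% of all promoters. This short core was searched for after the sequences had been read. It occurred 4 times each for *Nr4a1*, *Nr4a2* and *Nr4a3*, 2 times for *Fos* and 1 time each for *Fosb*, *Junb* and *Atf3*. The full cAMP response element TGACGTCA was in 0 of the 10 and in 1.79% of all promoters. The AP-1 site TGANTCA was likewise in 0 of 10 (7.81% of all), as were the Nr4a site AAAGGTCA (1.51%) and the CArG box of the serum response element (1.63%). The Egr site GCGGGGGCG was found for *Fosb*, *Fosl2* and *Nr4a1*, 3 of 10 against 2.91% of all promoters, each overlapping a GC box. The GC box GGGCGG was found for 8 of 10 (35.7% of all) and TATAAA for *Fos*, *Junb* and *Nr4a2* (13.6%). TATAAA lay at -33 to -28 for *Fos*, after the start at 1 to 6 for *Junb*, and on the opposite strand at -164 to -159 for *Nr4a2*. A match of letters is not a measured binding site, and no match says only that the letters are not in this window.

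All 12 probes were well above background on all 4 arrays, as were 85.7% of the 22007 tested probes. The study called a gene where the unadjusted p was below 0.01 and the change above 2-fold. By these criteria limma called 0 of the 12 and 0.736% of all tested probes. The unadjusted p was under 0.05 for 0 of the 12, against 2.81% of all, the methods' t-test also called 0, and the adjusted p over all tested probes was 0.983 or above (limma). The members were nevertheless lower in Meis1-deficient cells on average at 10 of 12 probes, and at the brighter or only probe of 8 of 10 genes. Their median log2 difference at these 10 probes was -0.81, against 0.08 over all tested probes. At the same 10 of 12 probes, the level was lower on both slides, as it was for 21% of all tested probes. Those 10 are every probe other than *Fos*, which was lower on slide 1 and higher on slide 2 (25.7% of all), and *Junb* A_51_P159194, which was higher on both (30.3% of all). Both Meis1-deficient arrays lay below both control arrays at 0 of 12 probes, against 10.9% of all, and above both at 0 of 12, against 16%. The levels of 10 of 12 probes ran from control slide 1 through Meis1-deficient slide 1 and control slide 2 down to Meis1-deficient slide 2. That order, looked for after the values had been seen, held for 7.48% of all tested probes.

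**Figure D1:**
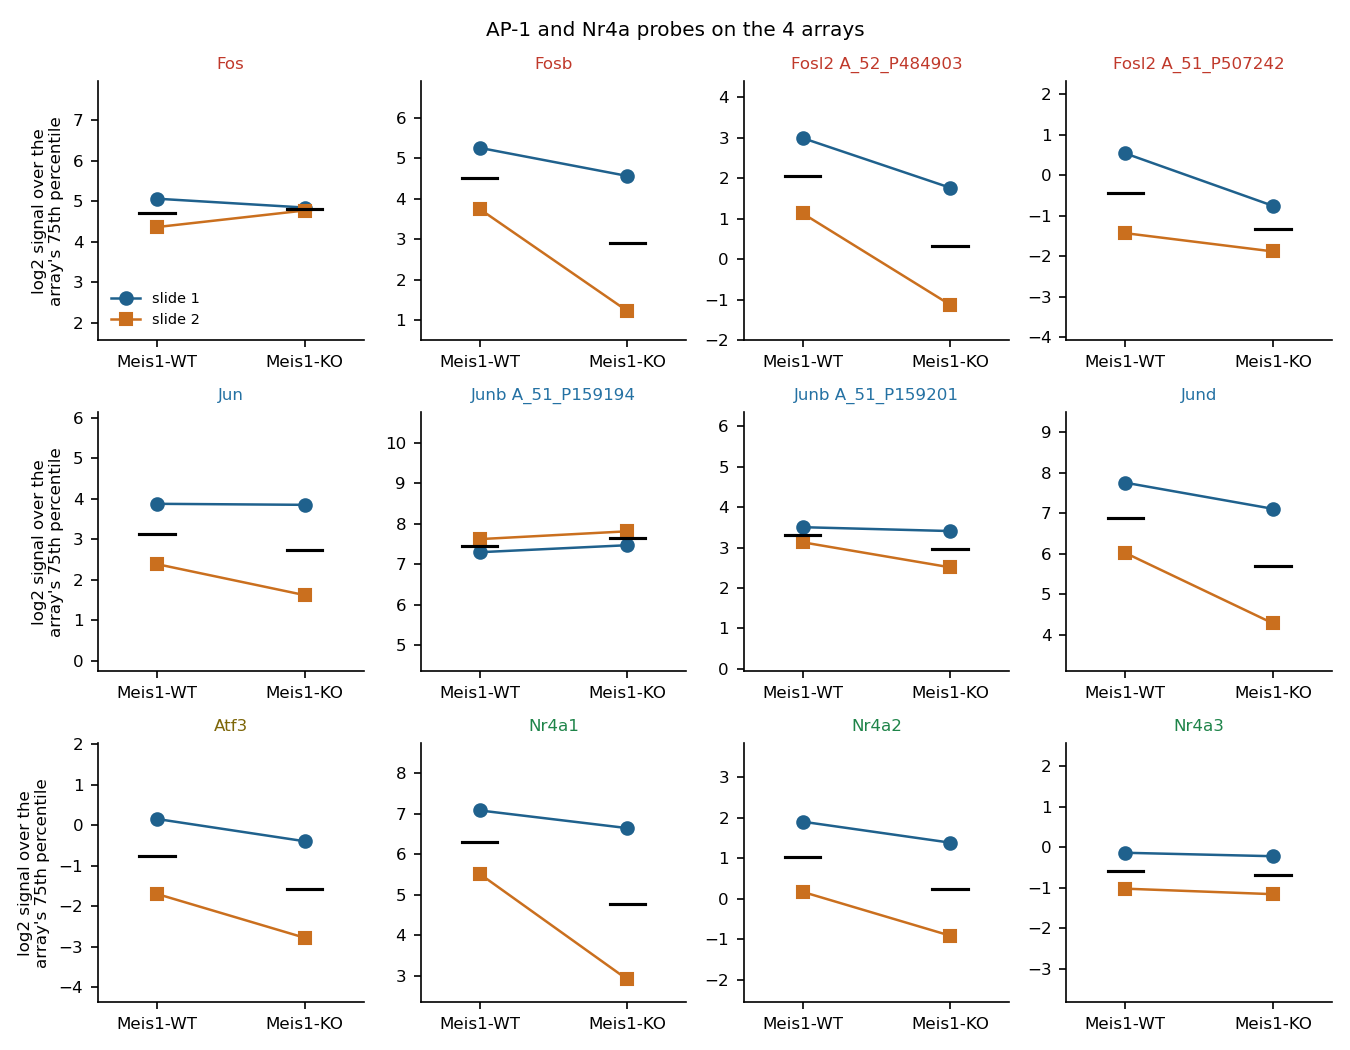
Log2 level over the array's 75th percentile of each AP-1 and Nr4a probe in control (Meis1-WT) and Meis1-deficient (Meis1-KO) LSK cells. Lines join the 2 arrays of a slide, black bars are genotype means, and each panel spans the same log2 range around its own mean. At 10 of the 12 probes slide 2 lies below slide 1 in both genotypes and both lines fall toward Meis1-KO.

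Among the Fos proteins, which cannot pair with themselves and need a Jun partner, *Fosb* and *Fosl2* differed most between genotypes. *Fosb* (A_51_P138378, chr7:19888477-19888536, mm9) had log2 levels of 5.25 in control and 4.56 in Meis1-deficient cells on slide 1, and of 3.74 and 1.22 on slide 2. The control pool of slide 2 thus lay below the Meis1-deficient pool of slide 1, and the groups overlapped. The control mean was 4.50 ± 1.07 and the Meis1-deficient mean 2.89 ± 2.36 (SD, n = 2 arrays each), a difference of -1.61 with a standard error of 1.12 (95% interval -4.33 to 1.12, adjusted p = 0.983 by limma). The standard error from limma is drawn toward the spread of all probes, and that of the methods' t-test was 1.83. Within slides the level was 0.618 times that of the control on slide 1 and 0.174 times on slide 2. With the slide as a block the standard error was 0.55 and the unadjusted p 0.0159, which does not reach the study's threshold (adjusted p = 0.592, limma).

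*Fosl2*, which encodes the Fos family member Fra-2, was measured at 2 places. At the brighter probe (A_52_P484903, chr5:32459624-32459683, mm9) the levels were 2.99 in control and 1.77 in Meis1-deficient cells on slide 1, and 1.13 and -1.13 on slide 2. The Meis1-deficient pool was lower by more than 2-fold on each slide, yet its value on slide 1 was above that of the control on slide 2. The genotypes differed by -1.74, at a standard error of 1.06 (95% interval -4.33 to 0.84, adjusted p = 0.983 by limma), which is a 3.35-fold lower mean level. With the slide as a block this was the only member probe called (unadjusted p = 0.00584), against 1.99% of all tested probes, and its adjusted p was 0.412 (limma). At the dimmer probe (A_51_P507242, chr5:32455088-32455147, mm9) the levels were 0.54 and -0.75 on slide 1 and -1.43 and -1.88 on slide 2, in control and Meis1-deficient cells. The direction was the same at both probes. Here the genotypes differed by -0.87 (standard error 0.77, adjusted p = 0.983 by limma), and the difference was larger on slide 1 (-1.30) than on slide 2 (-0.45), whereas at the other 11 probes the larger of the 2 differences was that of slide 2.

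*Fos* itself, the founding member of the family, was the flattest across Meis1-deficient arrays. Its probe (A_52_P262219, chr12:86817900-86817959, mm9), printed as 10 spots on each array, read 5.06 in control and 4.84 in Meis1-deficient cells on slide 1 and 4.36 and 4.77 on slide 2. Both Meis1-deficient values fell between the control values. The genotypes differed by 0.095, at a standard error of 0.46 (95% interval -1.03 to 1.22, adjusted p = 0.991 by limma). The SD was 0.50 between the control arrays and 0.052 between the Meis1-deficient arrays. Single spots within an array had an SD of 0.050 to 0.065. The sign of the *Fos* difference depended on the scaling. It was -0.14 after quantile normalization, -0.12 after normexp background correction and -0.28 without scaling, where the median of all tested probes was itself -0.30.

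Among the Jun proteins, which pair with Fos, Atf and each other, *Jund* was the lowest relative to the control. *Jund* (A_51_P357744, chr8:73224436-73224495, mm9), often a constitutive rather than an inducible member, had levels of 7.76 in control and 7.11 in Meis1-deficient cells on slide 1, and of 6.02 and 4.28 on slide 2. Again slide 2 was below slide 1 in each genotype and the groups overlapped. The difference was -1.19 (standard error 1.03, 95% interval -3.70 to 1.32, adjusted p = 0.983 by limma), and with the slide as a block its unadjusted p was 0.0390 (adjusted p = 0.779, limma). *Jun* (A_51_P325914, chr4:94715864-94715923, mm9; 10 spots per array, of which 4 over all arrays were left out as outliers) had 3.88 and 3.85 on slide 1, and 2.39 and 1.62 on slide 2. The genotypes were level on slide 1, at a difference of -0.025, and differed by -0.77 on slide 2. The level on slide 2 minus that on slide 1 was -1.49 in controls and -2.23 in Meis1-deficient cells. Single spots within an array had an SD of 0.055 to 0.071, which is technical spread only. The genotypes differed by -0.40 on average, at a standard error of 0.87 (adjusted p = 0.983, limma).

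*Junb*, which often restrains Jun and limits the growth of myeloid progenitors, gave opposite signs at 2 probes that overlap on the chromosome. A_51_P159194 (chr8:87500843-87500902, mm9) had levels of 7.30 in control and 7.47 in Meis1-deficient cells on slide 1, and of 7.62 and 7.82 on slide 2. It was the only one of the 12 that was higher on slide 2 than on slide 1, in both genotypes. A_51_P159201 (chr8:87500881-87500940, mm9) had 3.50 and 3.41 on slide 1, and 3.13 and 2.51 on slide 2. This probe followed the order of the other members, with the Meis1-deficient array of slide 2 lowest. The differences were 0.18 (standard error 0.44, 95% interval -0.88 to 1.25) and -0.36 (standard error 0.50, 95% interval -1.57 to 0.86), each with an adjusted p of 0.983 (limma), so neither was larger than its error. The sign at the brighter probe became negative with quantile normalization (-0.18), without scaling (-0.19), with normexp (-0.029), and when both probes were averaged (-0.087). The stretch that both probes carry is 22 of their 60 bases, the first of A_51_P159194 and the last of A_51_P159201. It is shown because the disagreement lies between probes that read partly the same sequence.

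Junb, shared by both probes: ttcgtgtctaaagtctatttta

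*Atf3* is a stress-induced bZIP factor that pairs with Jun proteins. Its probe (A_52_P452689, chr1:192994547-192994606, mm9) had levels of 0.16 in control and -0.39 in Meis1-deficient cells on slide 1, and of -1.70 and -2.78 on slide 2. The lowest of these, in the Meis1-deficient pool of slide 2, was a processed signal of 13.2 intensity units, still well above background. The genotypes overlapped, and their means differed by -0.82, at a standard error of 0.95 (95% interval -3.14 to 1.50, adjusted p = 0.983 by limma).

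Of the Nr4a receptors, *Nr4a1* (Nur77) differed most between genotypes. Its probe (A_51_P239654, chr15:101105071-101105130, mm9) had levels of 7.08 in control and 6.65 in Meis1-deficient cells on slide 1, and of 5.52 and 2.91 on slide 2. The Meis1-deficient pool of slide 2 lay far below the other 3 arrays, at 0.164 times its slide's control, while on slide 1 it was at 0.739 times. The control mean was 6.30 ± 1.11 and the Meis1-deficient mean 4.78 ± 2.64 (SD, n = 2 arrays each), a difference of -1.52 with a standard error of 1.23 (95% interval -4.50 to 1.46, adjusted p = 0.983 by limma), the widest interval of the 12. The standard error from limma is drawn toward the spread of all probes, and that of the methods' t-test was 2.03. With the slide as a block, the unadjusted p was 0.0264 and the adjusted p 0.708 (limma). *Nr4a2* (Nurr1; A_52_P494622, chr2:56960699-56960758, mm9) had 1.90 and 1.39 on slide 1, and 0.17 and -0.91 on slide 2. Its order of arrays was that of *Nr4a1*, with a difference of -0.80 (standard error 0.92, 95% interval -3.03 to 1.43, adjusted p = 0.983 by limma). *Nr4a3* (Nor1; A_51_P128397, annotated over chr4:48080690-48083876, mm9, a span longer than its 60 bases) had -0.13 and -0.22 on slide 1, and -1.02 and -1.16 on slide 2. Here the genotypes lay close together on each slide and the slides apart, and the difference was -0.11 (standard error 0.56, 95% interval -1.46 to 1.24, adjusted p = 0.991 by limma). With normexp its sign turned, to 0.033.

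The 2 slides therefore gave differences of unequal size. The median difference of the 10 genes, each at its brighter or only probe, was -0.48 on slide 1 and -1.08 on slide 2, while over all tested probes it was 0.025 and 0.13. More than 2-fold lower levels were found for 2 of 12 probes on slide 1, both of *Fosl2*, and for 6 of 12 on slide 2. Among all tested probes these shares were 3.64% and 16.2%, so larger differences of this direction were more frequent on slide 2 throughout the array. A slide holds 1 array of each genotype, and a difference within it has no error of its own.

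**Figure D2:**
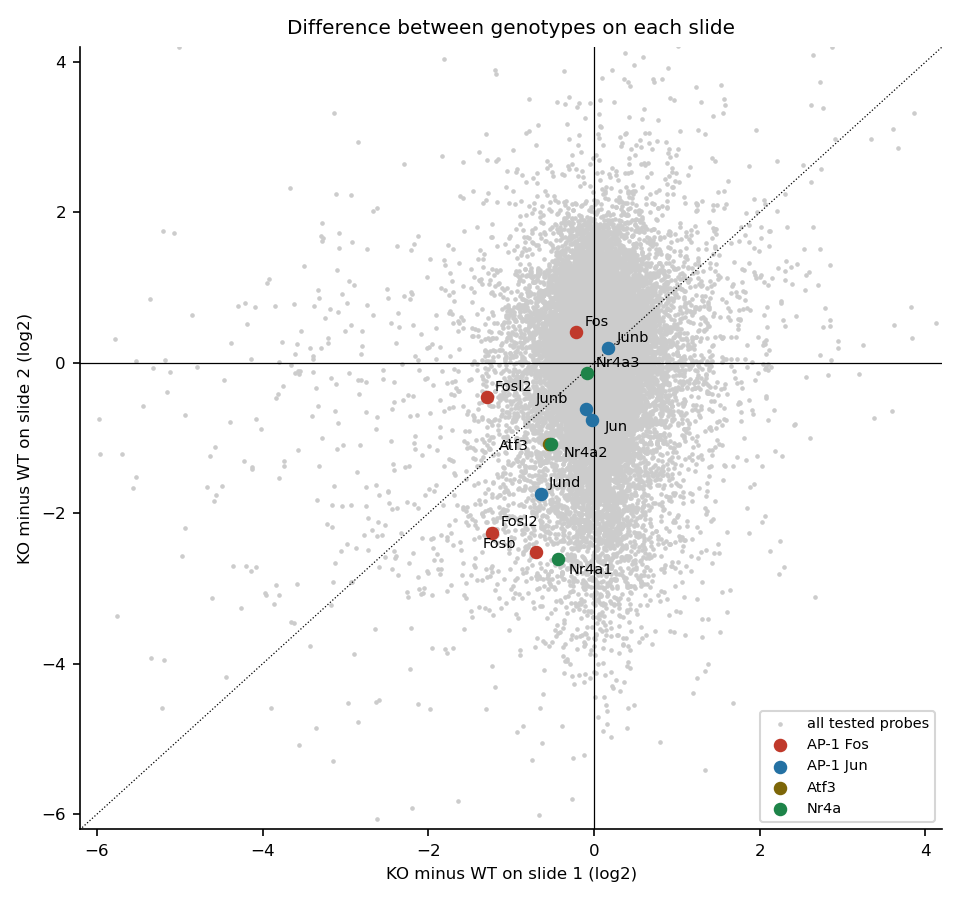
Log2 difference between Meis1-deficient and control cells (KO minus WT) on slide 1 (horizontal) and slide 2 (vertical) for all tested probes (grey) and the AP-1 and Nr4a probes (colored by family). The dotted line marks equal differences, and 27 tested probes lie outside the axes. 10 of the 12 colored points lie left of and below 0, and 6 are more than 2-fold lower on slide 2, those of *Fosb*, *Nr4a1*, *Jund*, *Atf3*, *Nr4a2* and the brighter *Fosl2* probe.

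Levels also differed between slides within a genotype, and for most members by more than the genotypes did. At 11 of 12 probes, all except *Junb* A_51_P159194, both genotypes were lower on slide 2 than on slide 1, as were 26.3% of all tested probes. At 8 of 12 probes both were lower by more than 2-fold, those of *Fosb*, *Fosl2* (both), *Jun*, *Jund*, *Atf3*, *Nr4a1* and *Nr4a2*, against 1.84% of all. The median of slide 2 minus slide 1 over the 10 genes was -1.54 in controls and -2.34 in Meis1-deficient cells, while over all tested probes it was 0.034 and 0.16. *Nr4a1* had the widest gap in Meis1-deficient cells, -3.74, with -1.57 in controls. The gap of *Fosb* was -3.34 and -1.51 in the same order. *Fos* had the smallest gap of the 12 in Meis1-deficient cells, -0.073, with -0.70 in controls. The slides were scanned apart and each held other pools of mice, so slide and pool cannot be told apart.

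**Figure D3:**
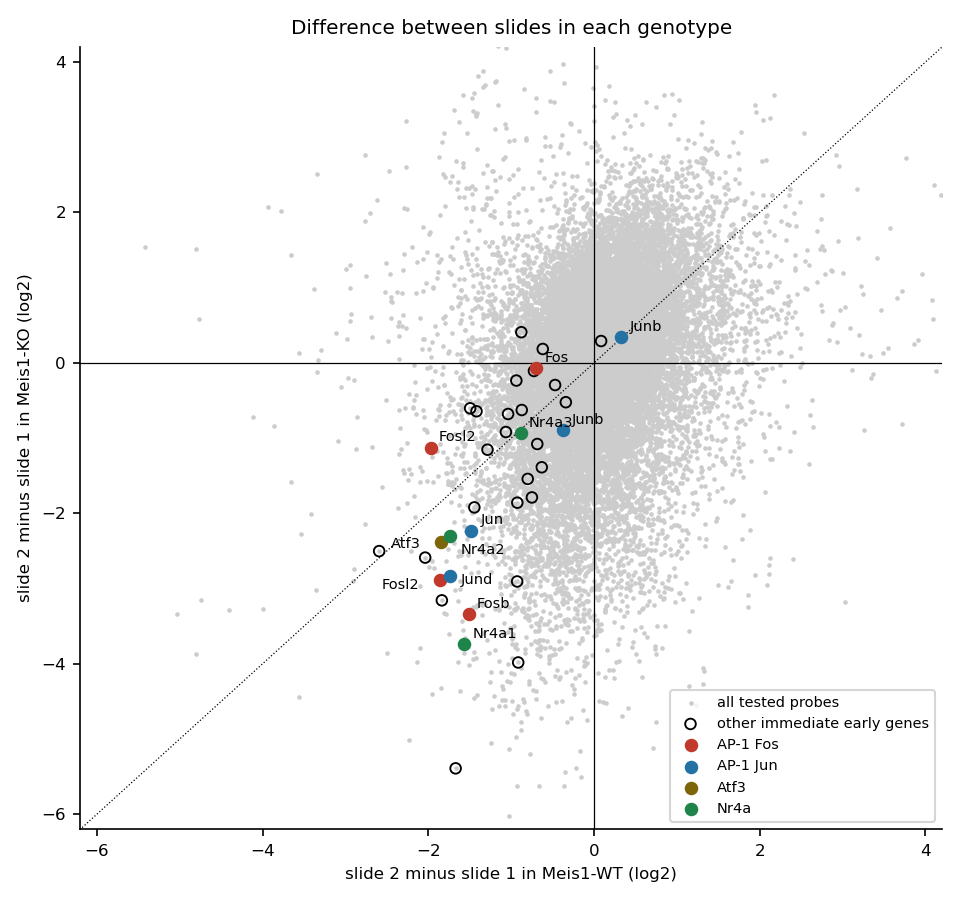
Log2 level on slide 2 minus that on slide 1 in control (horizontal) and Meis1-deficient cells (vertical) for all tested probes (grey), 25 other immediate early genes (open circles) and the AP-1 and Nr4a probes (colored). The dotted line marks equal values, and 31 tested probes lie outside the axes. 11 of 12 member probes and 22 of 25 other immediate early genes were lower on slide 2 in both genotypes.

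The average over both slides depended on single arrays. Leaving out 1 array sets a single slide of a genotype against both slides of the other. Without the Meis1-deficient array of slide 2, which is the dimmest, 2 of 12 probes were lower in Meis1-deficient cells, those of *Fosl2*, and without the control array of slide 1 it was 5 of 12. Without the Meis1-deficient array of slide 1, 10 of 12 were lower, and *Fosb* (-3.28), *Fosl2* (-3.19 at its brighter probe) and *Nr4a1* (-3.39) were called, where 10.1% of all tested probes were called. Without the control array of slide 2, 11 of 12 were lower. A genotype left with 1 array was assumed to vary like the other. When the Meis1-deficient array of slide 2 was left out, *Fosb* was at 0.062, *Nr4a1* at 0.35 and *Jun* at 0.72 log2 units above the control. Within slides, where an array is set against the control of its own slide, 11 of 12 probes were lower on slide 1 alone, which does not use that array, and 10 of 12 on slide 2. Of all tested probes, 21% were lower on both slides and 25.7% on slide 1 only. On slide 1 the differences of *Jun* (-0.025), *Nr4a3* (-0.085) and *Junb* A_51_P159201 (-0.095) were small. With the slide as a block, the 95% interval lay below 0 for 4 of 12 probes, none with an adjusted p under 0.05 (limma). In this fit 6.07% of all tested probes had an unadjusted p under 0.05 (limma). The intervals were -2.84 to -0.37 for *Fosb*, -2.86 to -0.63 for *Fosl2* A_52_P484903, -2.31 to -0.073 for *Jund* and -2.83 to -0.22 for *Nr4a1*. Here limma draws each standard error toward the spread of all probes, and those of the 12 ran only from 0.47 to 0.58. The intervals therefore do not measure how well the slides agree. The slides gave -0.70 and -2.52 for *Fosb*, and -0.44 and -2.61 for *Nr4a1*.

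**Figure D4:**
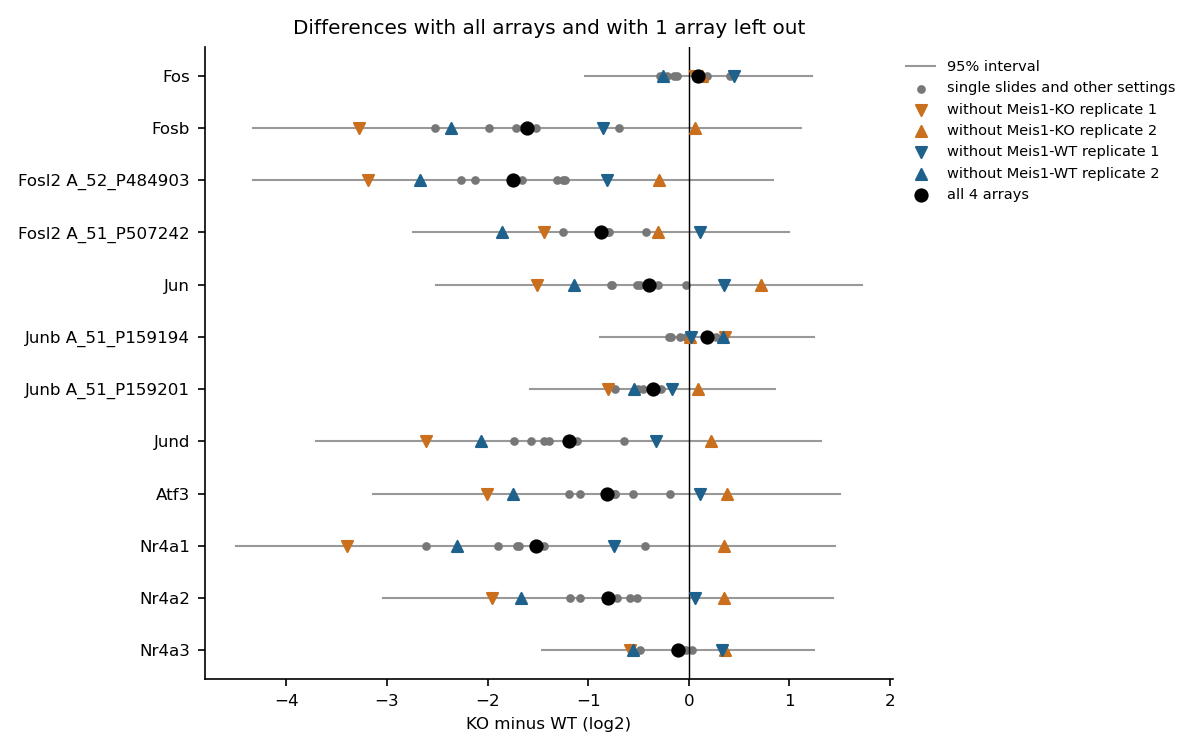
Log2 difference between Meis1-deficient and control cells for each member probe (KO minus WT, horizontal) with all 4 arrays (black, with its 95% interval from limma), with 1 array left out (triangles), and on single slides or under other settings (small grey points). Every 95% interval spans 0, and without Meis1-KO replicate 2 all probes other than those of *Fosl2* lie above 0.

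Other immediate early genes were compared as a list of 29, of which 25 were tested at their brightest probe. Of these, 20 were lower and 5 higher in Meis1-deficient cells, with a median of -0.20, and 0 were called. On both slides 13 were lower and 2 higher. With the slide as a block 3 of the 25 were called, all lower, against 1.99% of all tested probes called in either direction. Where a gene below was well above background on 1 of 2 arrays of a genotype, the fitted difference includes a level near background, and its size is not measured. *Egr2*, a zinc finger factor of the early growth response family, had levels of 2.30 in control and 0.10 in Meis1-deficient cells on slide 1, and of 0.63 and -5.29 on slide 2. In the fit, *Egr2* differed by -4.06 (standard error 1.66, adjusted p = 0.983 by limma and 0.101 with the block), with 1 of 2 Meis1-deficient arrays well above background. *Egr3*, of the same family, had 0.020 and -2.19 on slide 1, and -1.82 and -5.35 on slide 2. In the fit, *Egr3* differed by -2.87 (standard error 1.12, adjusted p = 0.983 by limma and 0.0907 with the block), again with 1 of 2 Meis1-deficient arrays well above background. *Per1*, a clock gene that is also rapidly induced, differed by -2.24 (standard error 1.24, adjusted p = 0.983 by limma and 0.464 with the block). Unlike any member, *Egr2* and *Egr3* had both Meis1-deficient arrays below both control arrays. These were 2 of the 25 genes, against 10.9% of all tested probes, and 1 of the 25 had both above (16% of all). Across the list, 22 of 25 genes were lower on slide 2 than on slide 1 in both genotypes, 6 of them by more than 2-fold, and the descending order of arrays seen at 10 of 12 member probes was found for 11 of 25.

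Other bZIP factors that can pair with Jun or Fos proteins, or compete for their sites, were nearly even in direction. Of 11 tested of 12, 6 were lower and 5 higher, 0 were called with or without the block, and the median was -0.21. The most positive difference was that of *Batf*, which pairs with Jun proteins in lymphoid cells (0.53, standard error 0.59), and the most negative that of *Fosl1*, which encodes Fra-1 (-1.01, standard error 0.52, with 1 of 2 Meis1-deficient arrays well above background). Both had an adjusted p of 0.983 (limma). On slide 2, 5 of the 11 were lower than on slide 1 in both genotypes, and 1 by more than 2-fold. Both Meis1-deficient arrays lay below both control arrays for 3 of the 11 (10.9% of all tested probes) and above both for 0 (16%).

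The kinases that lead to AP-1 were all detected, 16 of 16 tested, with 6 lower, 10 higher, 0 called and a median of 0.12. *Map2k4*, which activates Jun N-terminal kinase, was at the upper end (0.65, standard error 0.46) and *Map3k1*, further up in the same cascade, at the lower (-0.58, standard error 0.60). Of the transcription factors that induce immediate early genes, 11 of 12 were tested, with 5 lower, 6 higher, 0 called and a median of 0.065. *Creb1*, which binds the cAMP response element, was at 0.65 (standard error 0.56) and *Mef2c* at -0.67 (standard error 0.48). None of these 4 genes was called (adjusted p = 0.983 by limma).

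Feedback inhibitors, which end the signal by removing phosphates, blocking receptors or restraining NF-κB, gave 5 lower and 6 higher of 11 tested (13 listed), with 0 called and a median of 0.063. *Dusp2*, a phosphatase of MAP kinases, was at 0.67 (standard error 0.53) and *Tnfaip3*, the NF-κB inhibitor A20, at -1.54 (standard error 1.00). *Tnfaip3* shared the order of the members, from 5.47 in control slide 1 to 4.36, 3.68 and 1.72. Textbook AP-1 targets gave 5 lower and 4 higher of 9 tested (12 listed), with a median of -0.073. With the slide as a block 1 of them was called, against 1.99% of all tested probes. This was the cytokine gene *Il6*, higher by 2.81 (standard error 0.96, adjusted p = 0.983 by limma and 0.444 with the block) and well above background on 1 of 2 control arrays.

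**Figure D5:**
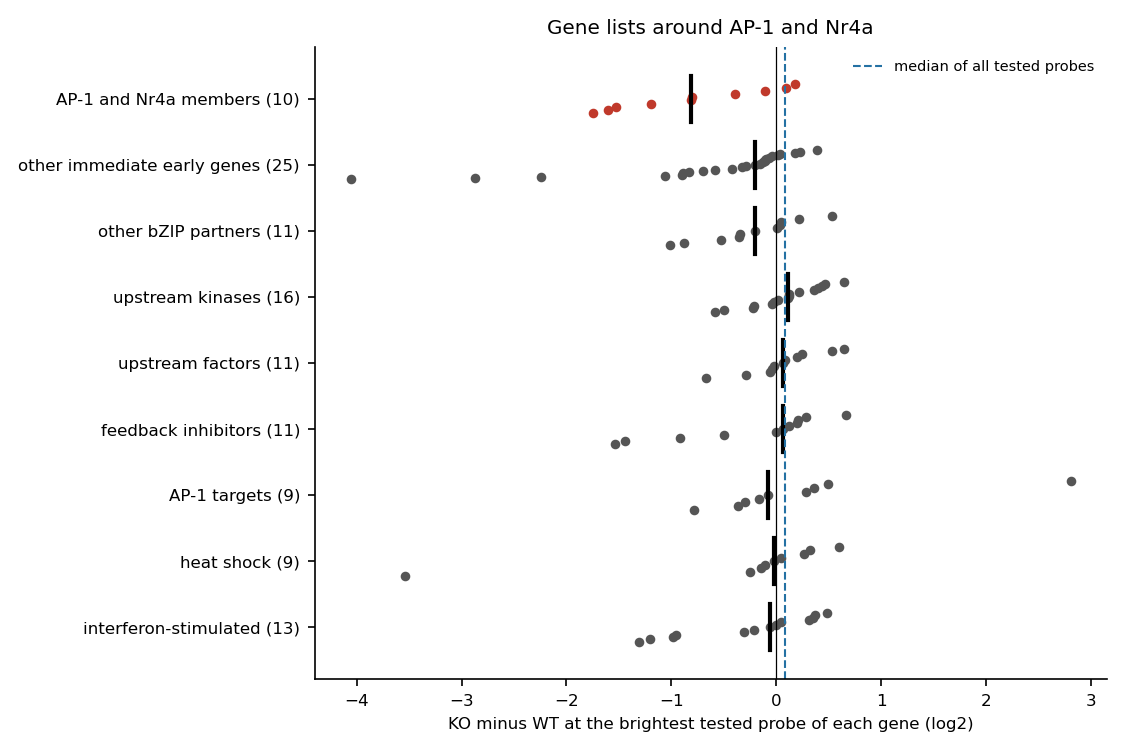
Log2 difference between Meis1-deficient and control cells at the brightest tested probe of each gene, by list (number of genes tested in parentheses). Points are genes, black bars are list medians, and the dashed line is the median of all tested probes, 0.08. The median of the 10 members is -0.81 and that of the other immediate early genes -0.20.

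Heat shock genes, which respond to stress through another factor, gave 5 lower and 4 higher of 9 tested (11 listed), with 0 called and a median of -0.021. The exception was *Hspa1a*, encoding an inducible Hsp70 and nearly identical in sequence to *Hspa1b*, so that its probe may read both. *Hspa1a* was called with the slide as a block, as were 1.99% of all tested probes (fitted difference -3.54, standard error 2.60, adjusted p = 0.983 by limma and 0.0416 with the block). Its levels were 4.48 in control and 0.12 in Meis1-deficient cells on slide 1, and -2.68 and -5.39 on slide 2, with 1 of 2 Meis1-deficient arrays well above background. The order of arrays was that of the members, and slide 2 minus slide 1 was -7.17 in controls. In Meis1-deficient cells the level on slide 2 was not well above background, so neither the gap between slides there nor the fitted difference between genotypes has a measured size. Interferon-stimulated genes gave 7 lower and 6 higher of 13 tested (15 listed), with 0 called and a median of -0.061. *Usp18* was at 0.49 (standard error 0.53) and *Oas2* at -1.31 (standard error 0.83, with 1 of 2 Meis1-deficient arrays well above background).

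Markers of granulocytes and monocytes also moved with the slide. Of 9 tested, 6 were lower on slide 2 in both genotypes and 5 by more than 2-fold. Only 1, *Elane*, was called, lower in Meis1-deficient cells (-1.57, adjusted p = 0.983 by limma), against 0.736% of all tested probes. The summed signal of the 11 markers on the array, in units of the 75th percentile, was 188 in control and 171 in Meis1-deficient cells on slide 1, and 62.5 and 124 on slide 2. On slide 1 all 11 were well above background in both genotypes, and on slide 2 it was 9 in control and 8 in Meis1-deficient cells. The summed level was higher in the Meis1-deficient than in the control pool of slide 2. The summed signal of 7 erythroid markers, of which 5 to 7 were well above background on each array, was 89.6 in control and 101 in Meis1-deficient cells on slide 1, and 26.8 and 247 on slide 2. That of 6 megakaryocyte markers, all well above background, was 9.98 and 10.2 on slide 1, and 36.2 and 11.8 on slide 2. That of 5 plasma cell markers, with 3 to 5 well above background, was 26.3 and 4.97 on slide 1, and 13.1 and 25.0 on slide 2. Of these, *Irf4* was called lower with the slide as a block, as 1.99% of all tested probes were called in either direction. In the fit it was at -2.36 (adjusted p = 0.309 by limma with the block), with 1 of 2 Meis1-deficient arrays well above background. The Meis1-deficient pool of slide 2 thus had the highest erythroid sum, and the control pool of slide 2 the highest megakaryocyte sum. Such a sum is weighted to the brightest markers. Of 6 erythroid markers tested, 4 were lower and 2 higher in Meis1-deficient cells on average, with a median difference of 0.11 on slide 2. Of 6 megakaryocyte markers, 3 were lower and 3 higher, with a median difference of -1.26 on slide 2. For 8 B-lineage markers, with 3 to 5 well above background, the sums were 18.4 and 11.7 on slide 1, and 7.46 and 8.60 on slide 2. For 6 T-lineage markers, with 1 to 3 well above background, they ran from 0.338 to 0.787. The part of these cell types in the levels of the members was not tested.

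The genes whose levels were most like those of *Nr4a1* and of *Fos* were found as the smallest Euclidean distance between the 4 array values, each centered on its own probe's mean, among 9379 genes well above background on all arrays. These are descriptions over 4 arrays. For *Nr4a1* the nearest was *Fosb*, at a distance of 0.30, followed by *Eif5b*, *Tpr*, *Arid1a* and *Rreb1* at 0.38 to 0.58. *Eif5b*, *Tpr* and *Arid1a* shared the low value of the Meis1-deficient array of slide 2 but were within 0.085 of the control on slide 1. For *Fos* the nearest were *Slc35c1*, *Mknk1*, *Cbll1*, *Ythdf1* and *Dnajc16*, at 0.055 to 0.075, and none of these was another immediate early factor.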

How the data were processed

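LSK RNA of 4 pools, 2 for each genotype, was profiled on 1-color mouse arrays after amplification of 10 ng and Cy3 labeling. The authors deposited spot intensities from Feature Extraction (9.5.3.1 in the file headers, 9.1 in the submitters' processing notes), background-subtracted and not scaled between arrays; their series table holds the same intensities. From these, control and outlier spots were left out, the log2 of an array's 75th percentile over spots was subtracted from its log2 signals, and spots of a probe were averaged. Tested probes had a value on all 4 arrays and were well above background on the 2 arrays of 1 or both genotypes. The test of genotype was limma 3.58.1 (lmFit, then eBayes, in R 4.3.3), two-sided and without other terms, with Benjamini-Hochberg adjustment over 22007 probes. Standard errors and intervals are limma's unless stated, each drawn toward the spread of all tested probes. The methods' t-test was run on the same values. The fit was tested on simulated data with independent arrays and no slide effect, which does not cover the gaps between slides found here.

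Replicate numbers mark the slide, as the file headers record; deviations of same-numbered arrays correlated at 0.266. With 2 arrays a genotype, the smallest two-sided p of an exact permutation test is 0.333. The number of arrays limits the precision.

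The members and the 15 context and marker lists were chosen with earlier results of these data known. Named genes were every member, the genes of a context list called with or without the slide block or otherwise its most positive and most negative difference, and the 5 genes nearest to *Fos* and *Nr4a1*. The called genes of marker lists (*Hlf*, *Flt3*, *Elane* and *Irf4*) and *Meis1* are named outside this rule, after their values were seen. Probe positions are the array's annotation on mm9; promoters are RefSeq's on GRCm38.p6. Exons and protein sequences were not used here. Alternatives were median, quantile and no scaling, normexp with an offset of 50, the series table, other filters, kept outliers, the slide block, an intensity trend, averaged probes, single slides and left-out arrays.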

Additional observations from a re-analysis of the deposited data

How the results depend on the processing

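Called probes over the array, 132 lower and 30 higher, became 14 higher without scaling, 47 lower and 2 higher with normexp, 100 higher without a filter on dim probes, 43 lower and 10 higher with the filter on all 4 arrays, 23 lower and 7 higher with the methods' t-test, and 85 lower and 16 higher with an intensity trend. With the replicate block, here the slide, they were 307 lower and 130 higher, and 1 member probe, of 1 gene, was called, against 0 and 0; the block changed no other member's call. With single arrays left out, the counts ran from 57 to 1705 lower and from 34 to 510 higher. Member probes called ran from 0 to 3 and member genes called from 0 to 3, the 3 only without the first Meis1-deficient array, where 10.1% of all tested probes were called, with member genes lower running from 1 to 9 and member probes lower from 2 to 11.

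Apart from left-out arrays, signs turned for *Fos* (-0.14 quantile, -0.28 no scaling, -0.12 normexp, -0.22 on slide 1 alone), *Junb* A_51_P159194 (-0.18, -0.19, -0.029, and -0.087 with probes averaged) and *Nr4a3* (0.033 normexp). With left-out arrays, the difference ran from -0.26 to 0.45 for *Fos*, -3.28 to 0.062 for *Fosb*, -1.86 to 0.11 for *Fosl2* A_51_P507242, -1.51 to 0.72 for *Jun*, -0.81 to 0.091 for *Junb* A_51_P159201, -2.61 to 0.22 for *Jund*, -2.01 to 0.38 for *Atf3*, -3.39 to 0.35 for *Nr4a1*, -1.95 to 0.35 for *Nr4a2* and -0.58 to 0.36 for *Nr4a3*. It stayed below 0 for *Fosl2* A_52_P484903 (-3.19 to -0.30) and above 0 for *Junb* A_51_P159194 (0.011 to 0.36). These fits set 1 slide of a genotype against both slides of the other. Within slides, 11 of 12 member probes were lower on slide 1 and 10 of 12 on slide 2. Of all tested probes, 21% were lower on both slides and 25.7% on slide 1 only. With 2 arrays a genotype and a dim Meis1-deficient array on slide 2, no member difference had an adjusted p under 0.05, with or without the block.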
